A study of Mus musculus with 24 samples.

Results

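The kainate receptor genes and a delta receptor gene were examined in mouse prefrontal cortex. They are Grik1, Grik2, Grik3, Grik4 and Grik5, which encode the 5 kainate receptor subunits, and Grid1, which encodes a delta subunit. The genes were chosen by their symbols, with earlier results of these data known. They make up 6 of the 15456 genes in the table of normalized counts, in which the count of each gene was scaled by a size factor specific to the mouse. All 6 had a mean of at least 10 normalized counts, which 14974 genes reached, and were tested with them.

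The RNA came from the prefrontal cortex of 24 BALB/C mice, BALB/c OlaHsd per the methods, at postnatal week 11. There were 6 mice in each of 4 groups and 1 library per mouse. The control mice are labelled as untreated, and the methods state that they received PBS. The duloxetine mice received this antidepressant, a blocker of serotonin and norepinephrine reuptake, by daily intraperitoneal injection. The R. flavefaciens mice received Ruminococcus flavefaciens, an anaerobic gut bacterium, by gavage at 2 doses a week per the labels, preceded by 3 days of daily doses per the methods, and the last group received both treatments. The reads recovered from the normalized counts ranged from 12811413 to 15607343 per mouse. The tissue was taken with a needle from slices, so each library holds RNA of many cell types. Camk2a and Slc17a7, markers of excitatory neurons, had means of 52790 and 25090 normalized counts over the 24 mice. No marker of the 10 cell type lists was listed at 0 in any mouse.

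Kainate receptors are glutamate-gated cation channels of 4 subunits each, which carry a slow part of the postsynaptic current and also act on presynaptic release. The subunits encoded by Grik1, Grik2 and Grik3 bind glutamate with lower affinity and can form channels alone, whereas those encoded by Grik4 and Grik5 bind it with higher affinity and need a partner of the first class. Delta receptors hardly conduct in response to glutamate, and link the postsynaptic membrane through secreted cerebellins to presynaptic neurexins.

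Grik5 had the highest level per length of the 6 genes and Grik1 the lowest, in each of the 4 groups. In control mice Grik5 was at 758 ± 31.7 normalized counts per kb of exon (SD, n = 6) and Grik3 at 338 ± 25.4. Grid1 followed at 186 ± 10.3 per kb and Grik4 at 81.7 ± 4.41 per kb. Grik2 was at 60.1 ± 1.90 per kb and Grik1 at 25.5 ± 2.11 per kb. In the control mice the ranges of neighbours in this order did not overlap. The order of the means was the same in the duloxetine, the R. flavefaciens and the combined group. The only neighbours whose ranges met in a treated group were Grik3 and Grid1, in the R. flavefaciens group, where the lowest Grik3 value was 177 and the highest Grid1 value 185 per kb. The exon lengths behind these levels join all annotated exons of a gene, from 5168 bases for Grik5 to 13246 bases for Grik2, so a gene whose long exons are rarely used appears lower.

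**Figure D1:**
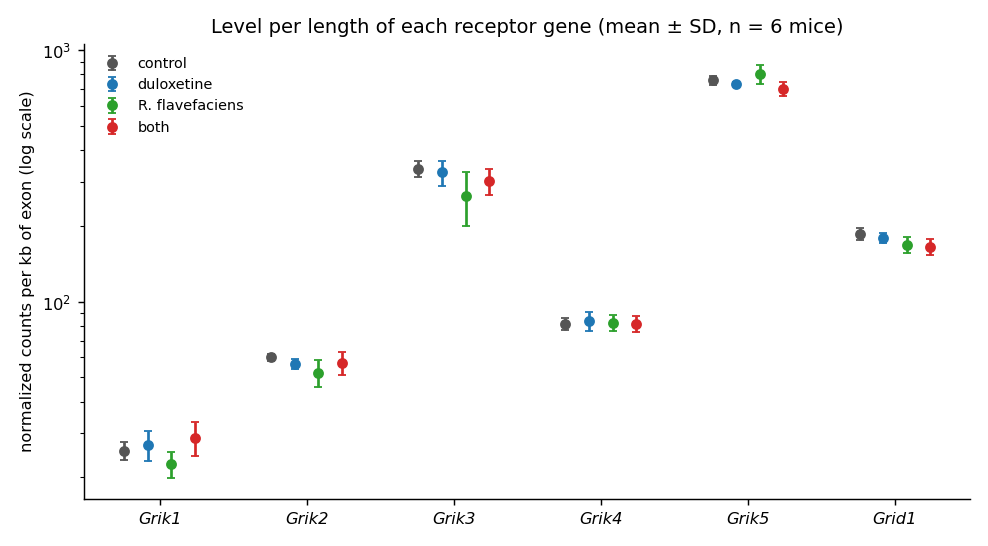
Level per length of the 6 receptor genes, in normalized counts per kb of exon on a log axis, for the 4 groups; points are means and bars SD over 6 mice. Grik5 stands highest and Grik1 lowest in every group. On this log axis the widest bar is that of Grik3 in the R. flavefaciens group (264 ± 64.4). In linear units the SD of Grik5 in that group is larger (803 ± 71.5).

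The positions in the table match GRCm38, with Grik1 on chromosome 16, Grik2 on 10, Grik3 on 4, Grik4 on 9, Grik5 on 7 and Grid1 on 14. Of the genes that overlap them in GENCODE vM21, only Gm27617 and Gm24420, both of the small RNA class misc_RNA, share exon bases with a member, 91 with Grid1 and 59 with Grik4. Neither is in the table.

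The sequences before the start sites of Grik3 and Grik5 are shown because these were the members with the largest fold change and with the only call, both described below. RefSeq promoters (GRCm38.p6) matched 4 of the 6 genes by symbol, Grik2, Grik3, Grik4 and Grik5. The 250 bases before the RefSeq start are printed 5′ to 3′ on the gene's strand, with each GC box, searched as GGGCGG on both strands, in capitals. The region of Grik3 is chr4:125490446-125490695 on the plus strand, and that of Grik5 is chr7:25072370-25072619 on the minus strand.
Grik3: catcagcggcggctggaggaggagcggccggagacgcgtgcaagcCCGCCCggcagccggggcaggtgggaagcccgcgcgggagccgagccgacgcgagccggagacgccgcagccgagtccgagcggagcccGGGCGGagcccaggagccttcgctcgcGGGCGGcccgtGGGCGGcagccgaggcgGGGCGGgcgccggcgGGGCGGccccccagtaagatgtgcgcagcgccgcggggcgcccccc
Grik5: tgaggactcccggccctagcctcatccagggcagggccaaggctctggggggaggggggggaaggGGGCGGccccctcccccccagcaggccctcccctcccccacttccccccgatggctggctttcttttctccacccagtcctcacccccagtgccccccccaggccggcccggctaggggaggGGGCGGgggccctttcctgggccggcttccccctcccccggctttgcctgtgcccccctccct
The Grik3 sequence held 6 GC boxes and 42 CpG dinucleotides at a GC content of 82%, and the Grik5 sequence 2 GC boxes and 8 CpG dinucleotides at 75.2%. Grik4 held 1 GC box and Grik2 none. Of 32851 mouse promoters of this length 32.7% hold at least 1 GC box, and their median GC content is 52.4% and their median number of CpG dinucleotides 6. The letters TATAAA (in 12.4% of promoters), TGACGTCA (in 1.55%) and CACGTG (in 6.02%) were found on neither strand in any of the 4 sequences.

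Treatment with R. flavefaciens alone went with lower values of Grik2, Grik3 and Grid1, none of which passed the threshold over all genes. Grik3, with the largest difference, ranged from 2721 to 3373 normalized counts in control mice with a median of 3065. In the R. flavefaciens mice it ranged from 1591 to 3311 with a median of 2320. In this group 5 of 6 mice were below every control mouse and the remaining one, mouse 8_3, lay near the top of the control range. The fitted difference was a log2 fold change of -0.39 ± 0.11 (SE), with an unadjusted p of 0.00193 and an adjusted p of 0.0822 (limma, Benjamini-Hochberg over all genes tested). The exact permutation test of this gene alone, two-sided over 924 groupings of the 12 mice, gave p = 0.026, where the smallest p possible is 0.00216. The difference was smaller without mouse 9_3 (log2 fold change -0.28, adjusted p = 0.252) and larger without mouse 8_3 (-0.49, adjusted p = 0.0221). In bulk tissue, fewer cells that express a gene and less RNA per cell cannot be told apart.

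Grik2, whose product is the most studied low-affinity subunit, had between 764 and 833 normalized counts in control mice (median 796) and between 546 and 768 in R. flavefaciens mice (median 701). Here too 5 of 6 treated mice lay below all control mice, and the sixth overlapped the bottom of their range. Its log2 fold change was -0.22 ± 0.07, with an adjusted p of 0.104 and an exact permutation p of 0.00433 for the gene alone. After removal of a trend on transcript length across all genes, the log2 fold change of Grik2, the longest member, was -0.10 with an adjusted p of 0.449.

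Grid1 had between 1036 and 1186 normalized counts in control mice (median 1119) and between 917 and 1105 in R. flavefaciens mice (median 1005). The ranges overlapped, and 3 of 6 treated mice were below every control mouse. Its log2 fold change was -0.15 ± 0.06 (limma adjusted p = 0.146).

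The remaining 3 genes had no unadjusted p under 0.05. Grik1 gave a log2 fold change of -0.18 ± 0.10 (adjusted p = 0.336), with a median of 155 normalized counts against 174. Grik5 gave 0.08 ± 0.05 (adjusted p = 0.409), and 4 of its 6 treated mice were above all control mice while 1, mouse 9_2, was below them all. Grik4 gave 0.01 ± 0.06, with a 95% interval from -0.12 to 0.13. The comparison called 0 of the 6 genes, beside 4 of all genes tested (0.0267%). DESeq2 called 497 genes here, among them Grik3, and leaving out 1 mouse gave between 0 and 616 calls by limma. At an unadjusted p under 0.05, 3 of 6 were lower and none higher, beside 10.8% of all genes lower. The median log2 fold change was -0.17 over the 6 genes and 0.00 over all genes tested, and the 2 groups did not overlap for 0 of 6 genes and for 1.62% of all genes.

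**Figure D2:**
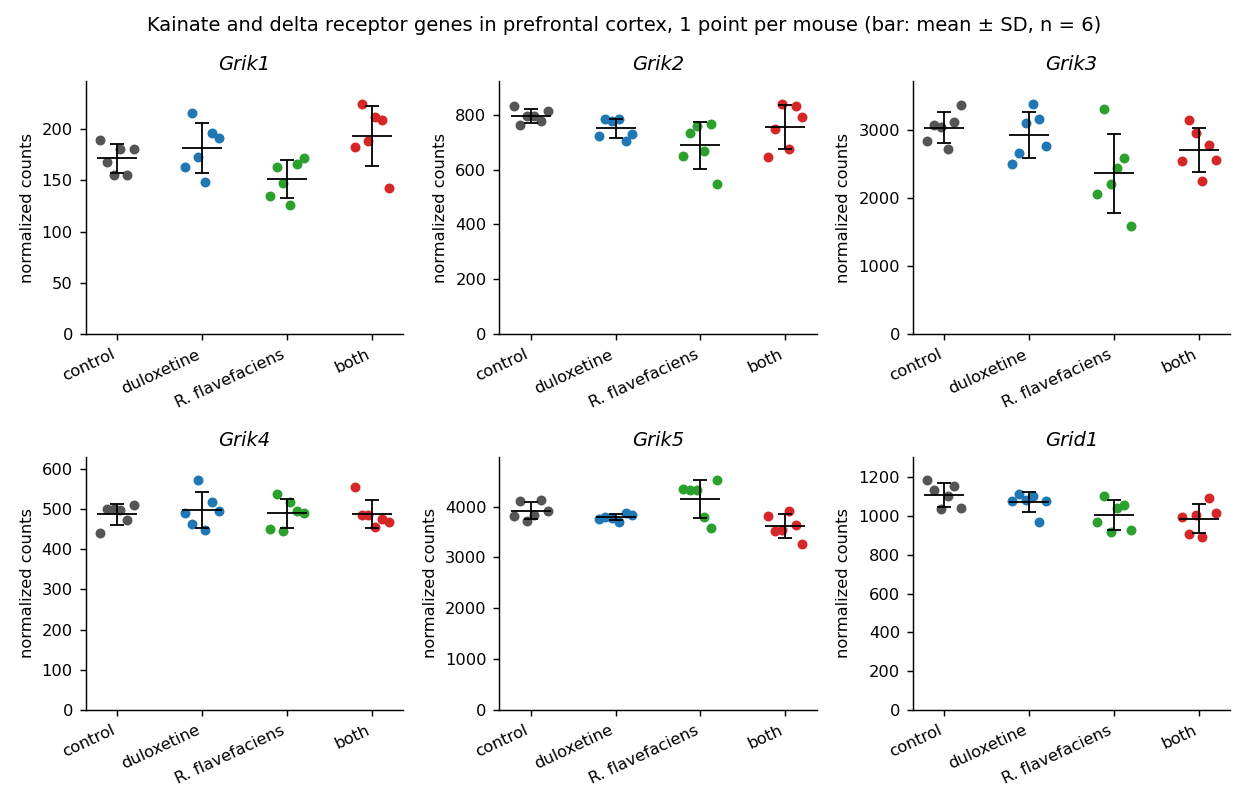
Normalized counts of the 6 receptor genes in the 4 groups, with a linear axis from 0; each point is a mouse, and bars give the mean and SD of 6 mice. Grik3 in the R. flavefaciens group spreads from 1591 to 3311, while Grik4 lies between 440 and 573 over all 24 mice.

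With both treatments, Grid1 and Grik5 had lower values than in control mice at an unadjusted p under 0.05, and no gene of the 6 was called. Grid1 had a median of 998 normalized counts (890 to 1093) with both treatments, and 5 of 6 mice lay below all control mice. Its log2 fold change was -0.17 ± 0.06 (limma adjusted p = 0.136; exact permutation p = 0.013). Grik5 had a median of 3589 (3258 to 3911) against 3870 (3722 to 4128) in control mice. Of its 6 treated mice 4 were below every control mouse, and the log2 fold change was -0.12 ± 0.05 (adjusted p = 0.253). After quantile normalization it was -0.06, with an unadjusted p of 0.355. Grik3 gave -0.17 ± 0.11 and Grik2 -0.08 ± 0.07 in this comparison, with adjusted p-values of 0.451 and 0.567. Grik2 gave -0.04 without mouse 10_2 and -0.05 with upper-quartile rescaling, and Grik3 -0.11 with quantile normalization. Over all genes 0.1% were called here and 8.73% were lower at an unadjusted p under 0.05, beside 2 of the 6 receptor genes.

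Duloxetine alone left the 6 genes near control. Their log2 fold changes lay between -0.09 for Grik2 and 0.07 for Grik1, and the adjusted p was 1.0 for each of the 6. Without mouse 5_3 Grik1 gave 0.02, and without single mice Grik3 lay between -0.10 and -0.01. No gene at all was called by limma (0.0%), 573 genes (3.83%) had an unadjusted p under 0.05, and the 6 receptor genes were not among them. The 95% intervals were widest for Grik3, from -0.29 to 0.18, and narrowest for Grik5, from -0.15 to 0.06. For Grik2 all 6 duloxetine mice lay under the control mean, with 703 to 784 against 764 to 833 normalized counts, and the exact permutation p of this gene alone was 0.039.

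In the limma fit of all mice, Grik5 was the only one of the 6 genes called in any of the 9 comparisons. In both treatments against R. flavefaciens, DESeq2 on the recovered reads called Grik5 (adjusted p = 0.0119) and Grik1 (0.0361), among 610 of 14974 genes. It also called Grik3 in R. flavefaciens against control (0.0438), among 497 genes. For the bacterium averaged over duloxetine it called Grid1 (0.0385), among 361 genes. For duloxetine averaged over the bacterium it called Grik5 (0.046), among 317 genes. Grik5 was lower in mice given both treatments than in mice given R. flavefaciens alone. With the bacterium alone it ranged from 3585 to 4528 normalized counts with a median of 4325, and with both from 3258 to 3911 with a median of 3589. The ranges overlapped, 3 of 6 mice with both treatments were below every mouse given the bacterium alone, and all 6 were below that group's mean. The log2 fold change was -0.20 ± 0.05 (SE), which is 12.7% lower, with a 95% interval from -0.30 to -0.09 and an adjusted p of 0.0414 (limma). The exact permutation test of Grik5 alone gave p = 0.0238. The adjusted p lay close to the threshold, and the call was lost when only these 2 groups entered the fit (0.216), after quantile normalization (0.111), after rescaling to the upper quartile (0.0868) and without any of 10 of the 24 mice in turn, up to 0.101 without mouse 11_3.

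Grik1 had higher values in this comparison and did not pass the threshold. It ranged from 126 to 172 normalized counts with the bacterium alone (median 155) and from 143 to 224 with both treatments (median 199). Of the mice with both treatments 5 were above every mouse given the bacterium alone, and mouse 12_4 was inside their range. The log2 fold change was 0.34 ± 0.10 with an adjusted p of 0.0727 (limma), and 0.43 with an adjusted p of 0.0191 without mouse 12_4. Grik3 gave 0.22 ± 0.11 and Grik2 0.14 ± 0.07 (adjusted p = 0.281 and 0.282). Without mouse 9_3 these were 0.11 and 0.07, and with the length trend removed Grik2 gave 0.04. In the same comparison Grik4 gave -0.01 ± 0.06 and Grid1 -0.03 ± 0.06. The share of all genes called in this comparison was 2.23%, beside 1 of the 6. At an unadjusted p under 0.05, 9.9% of all genes were lower and 9.76% higher, beside 1 and 1 of the 6, and the groups did not overlap for 1.44% of all genes and for none of the 6. The comparisons of R. flavefaciens with control and of both treatments with R. flavefaciens use the same 6 mice given the bacterium alone, on opposite sides.

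**Figure D3:**
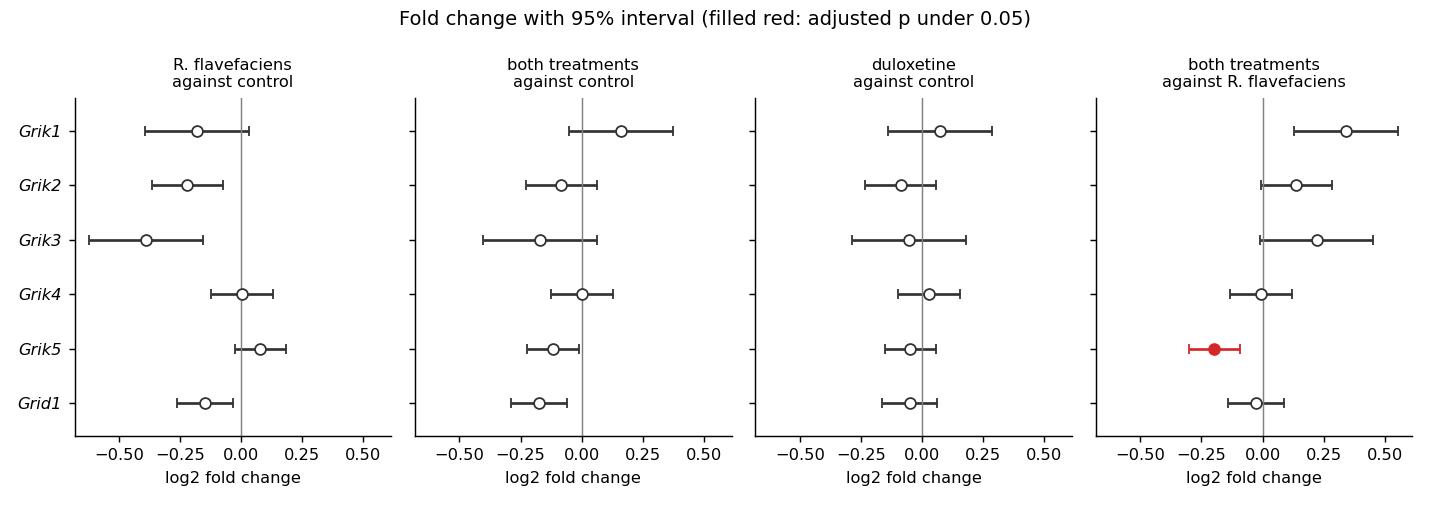
Log2 fold change of the 6 receptor genes with its 95% interval in 4 comparisons, from the limma fit; a filled red point marks an adjusted p under 0.05. The only filled point is Grik5, at -0.20 in both treatments against R. flavefaciens.

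Set directly against the duloxetine group, both treatments gave lower Grid1 (log2 fold change -0.12 ± 0.06, limma adjusted p = 0.816), the 1 gene of the 6 with an unadjusted p under 0.05, beside 2.88% of all genes lower and 0.0% called. R. flavefaciens set against duloxetine gave lower Grik3 (-0.33 ± 0.11, adjusted p = 0.16), lower Grik1 (-0.25 ± 0.10, adjusted p = 0.223) and higher Grik5 (0.13 ± 0.05, adjusted p = 0.22). None was called, beside 0.12% of all genes, and at an unadjusted p under 0.05 these 2 lower and 1 higher gene stand beside 8.47% and 7.88% of all genes.

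Averaged over duloxetine, the 12 mice given the bacterium had lower Grid1, Grik3 and Grik2 than the 12 without it at an unadjusted p under 0.05. By limma, Grid1 differed by -0.14 ± 0.04 on the log2 scale (adjusted p = 0.111), Grik3 -0.25 ± 0.08 (adjusted p = 0.122) and Grik2 -0.11 ± 0.05 (adjusted p = 0.254). Grik2 gave -0.04 with the length trend removed, and kept an unadjusted p under 0.05 in 13 of 24 fits that left out 1 mouse. These are 3 of 6 genes, beside 10.4% of all genes lower and 0.0267% called. Averaged over the bacterium, the 12 mice given duloxetine had lower Grik5 and higher Grik1 at an unadjusted p under 0.05. Grik5 differed by -0.12 ± 0.04 (limma adjusted p = 0.0957) and Grik1 by 0.21 ± 0.07 (adjusted p = 0.171). At that unadjusted level 7.49% of all genes were lower and 7.44% higher, and 1.03% were called. The interaction, that is, the difference of the duloxetine effect with and without the bacterium, was 0.22 ± 0.10 for Grik2 and -0.15 ± 0.07 for Grik5. Both had an unadjusted p under 0.05 (0.0335 and 0.0499) and adjusted p-values of 0.639 and 0.647. That of Grik2 was 0.12 with the length trend removed, and that of Grik5 kept an unadjusted p under 0.05 in 6 of 24 fits that left out 1 mouse. Over all genes 3.86% were higher and 3.67% lower at that level and 0.0% were called by limma.

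The make-up of the kainate receptor transcripts was compared within each mouse, where the size factor drops out. Grik5 made up a median of 60.7% of the summed level per kb of the 5 kainate receptor genes in control mice and 65.4% in R. flavefaciens mice (60.4% to 72.8%). With duloxetine it ranged from 57.3% to 62.3%, and with both treatments the median was 59.0%. Grik3 made up 26.5% in control mice, 26.4% with duloxetine, 21.6% with R. flavefaciens (14.7% to 26.8%) and 26.3% with both treatments. Grik4, Grik2 and Grik1 made up 6.51%, 4.80% and 1.99% in control mice. The log2 ratio of the 2 higher-affinity genes, Grik4 and Grik5 summed, to the 3 lower-affinity genes had a mean of 0.99 ± 0.08 in control mice (SD, n = 6) and 1.00 ± 0.14 with duloxetine. It was 1.41 ± 0.36 with R. flavefaciens, from 1.05 to 1.97, and 1.02 ± 0.21 with both treatments. The ranges of all 4 groups met, and the R. flavefaciens group reached furthest up. These shares rest on the same values as the comparisons above and were not tested.

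Mouse 9_3 of the R. flavefaciens group was at an extreme for 3 of the genes. It had the lowest Grik2 (546) and Grik3 (1591) and the highest Grik5 (4528) of the 24 mice, and a Grik5 to Grik3 ratio per kb of 4.94. In control mice this ratio lay between 2.01 and 2.44. Mouse 8_3 of the same group had Grik3 at 3311 and Grik5 at 4329, a ratio of 2.27.

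**Figure D4:**
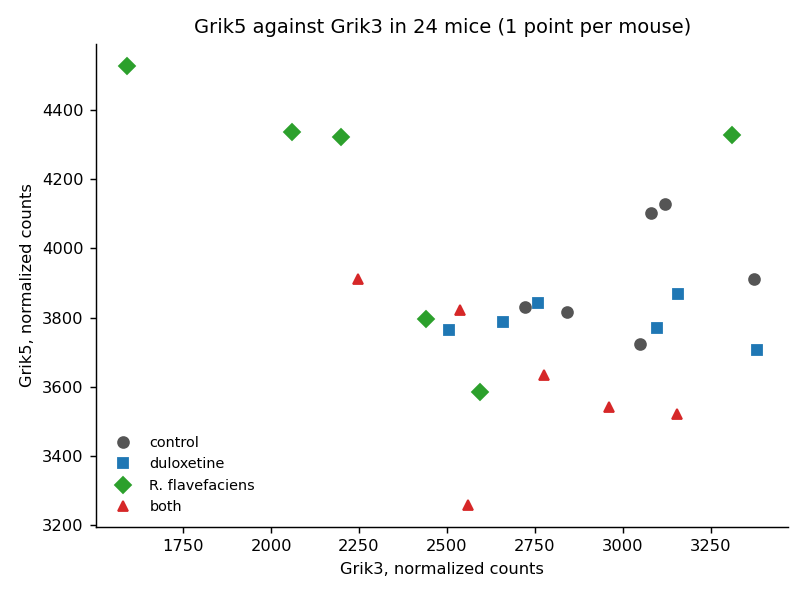
Grik5 against Grik3 in the 24 mice, both in normalized counts on axes that do not start at 0; each point is a mouse and symbols mark the group. Mouse 9_3 of the R. flavefaciens group lies at the upper left (Grik3 1591, Grik5 4528), 2 more mice of that group lie near it, and mouse 8_3 lies at the upper right (Grik3 3311, Grik5 4329).

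The variation among mice of the same group was also described by correlations of log2 values over the 24 mice with the group means taken off. Points share their library and its size factor, and no test was made. Grik2 and Grik3 had a Pearson r of 0.61 (Spearman 0.52, Pearson 0.42 without the 2 mice farthest from the median of Grik2), and Grik2 and Grid1 0.48 (0.52 and 0.49). Grik2 and Grik5 had -0.56 (-0.58 and -0.41). Grik1 and Grik4 had Pearson values between -0.20 and 0.32 with the other genes. Among 11936 genes with a mean of at least 50, those most like Grik3 were Lrrtm2 (0.89), Ipcef1 (0.89) and Xpr1 (0.89). Those most like Grik2 were Lrp1b, Cacna1e and Scaf4 (0.87 each), and those most like Grid1 were Klhl7 (0.89), Pdk1 (0.88) and Impact (0.82). For Grik5 they were Fbxw5 (0.85), Mpnd (0.83) and Ccdc85b (0.82), for Grik1 Tspan12 (0.77), Ammecr1 (0.73) and Rmdn1 (0.73), and for Grik4 Ccdc43 (0.69), Cd99l2 (0.67) and Ptcd1 (0.63).

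The genes around these receptors were read from 6 lists with 43 genes in all, of which 42 were tested, and none was called in any of the 9 comparisons by limma. Neto1 and Neto2 encode the auxiliary subunits that bind kainate receptors and slow their decay. With R. flavefaciens Neto1 ranged from 837 to 1353 normalized counts against 1280 to 1399 in control mice. Of its 6 treated mice 5 were below all control mice, with a log2 fold change of -0.21 ± 0.08 (adjusted p = 0.163). Neto2 had a median of 1042 against 1158 and a log2 fold change of -0.21 ± 0.08 (adjusted p = 0.136). Both of the 2 genes were thus lower at an unadjusted p under 0.05, beside 10.8% of all genes, with a median of -0.21 beside 0.00 over all genes.

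Of 9 genes of the delta receptor family and its trans-synaptic partners, 3 were lower with R. flavefaciens at an unadjusted p under 0.05 and none higher, beside 10.8% of all genes lower and 8.86% higher, with a median log2 fold change of -0.07. Nrxn2, a presynaptic neurexin, gave -0.07 ± 0.08. The secreted cerebellins that bridge delta receptors and neurexins gave -0.12 ± 0.16 for Cbln1, -0.02 ± 0.11 for Cbln2 and -0.01 ± 0.21 for Cbln4, none with an unadjusted p under 0.05. The 3 C1q-like ligands had a median of 0.00 and none at that level, with -0.08 ± 0.09 for C1ql3 and 0.12 ± 0.15 for C1ql1.

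Of 10 genes for trafficking, modification and editing of kainate receptors, 5 were lower and 1 higher with R. flavefaciens at an unadjusted p under 0.05, with a median log2 fold change of -0.14. Klhl24, which encodes an adaptor that binds kainate receptor subunits, gave -0.16 ± 0.06 (adjusted p = 0.173). Adarb1, which encodes the RNA-editing enzyme that recodes Grik2 and other glutamate receptor transcripts, gave -0.06 ± 0.07. The scaffold genes Dlg4 and Dlg1 gave -0.15 ± 0.10 and -0.11 ± 0.06. Among AMPA and NMDA receptor subunits, 7 of 10 were lower and none higher at that level, with a median of -0.12. Grin2b gave -0.39 ± 0.11 (adjusted p = 0.0755), close to the fold change of Grik3, and Gria2 -0.07 ± 0.05. Of 8 genes of glutamate supply and removal 2 were lower at that level, with a median of -0.08. Slc17a7, the vesicular transporter of cortical excitatory neurons, gave -0.07 ± 0.06, and Slc1a2, the main astrocyte transporter, -0.12 ± 0.09. Over the 6 lists 19 genes were lower and 1 higher at an unadjusted p under 0.05 with R. flavefaciens, beside 10.8% of all genes lower. With both treatments against R. flavefaciens 2 were lower and 3 higher of the 42 at that level, beside 9.9% and 9.76% of all genes.

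No marker of a cell type or layer was called by limma with R. flavefaciens against control. All 4 deep-layer markers had lower values, with a median log2 fold change of -0.28. At an unadjusted p under 0.05, 3 of them were lower, beside 10.8% of all genes. Their summed level, led by Bcl11b, had a median of 3186 normalized counts (2850 to 4339) against 3988 (3636 to 4397) in control mice. Mouse 8_3, the R. flavefaciens mouse with Grik3 in the upper control range, had the highest sum of its group, 4339. Mouse 9_3, with the lowest Grik3, had 2962, while mice 7_2 and 9_1 had lower sums of 2850 and 2913. Mice 8_4 and 9_2 had 3410 and 3721. The 7 inhibitory neuron markers, led by Gad1, summed to a median of 11260 against 10320, with 3 of the 7 higher at that level, beside 8.86% of all genes higher. The 5 microglial markers, led by Csf1r, summed to 3584 against 3241. All 5 had higher values, 3 of them at that level. The 5 excitatory neuron markers, led by Camk2a, summed to a median of 83840 against 82890 and a mean of 82970 against 84020. Of these markers 4 of 5 had lower values, 1 at that level beside 10.8% of all genes, with a median log2 fold change of -0.07. The 4 upper-layer markers, led by Cux2, summed to 6671 against 6958 with none at that level. Sums of astrocyte (12550 against 11890), oligodendrocyte (31200 against 21690), oligodendrocyte precursor (2042 against 1902) and endothelial markers (2764 against 2568) had no gene at that level. The 5 striatal markers, led by Ppp1r1b, summed to 4483 in mouse 8_4, against at most 2615 in any other mouse, and to a median of 1333 against 1496 and a mean of 1911 against 1510. Of these markers 3 of 5 had higher values, none at that level, with a median log2 fold change of 0.21. With both treatments against R. flavefaciens, the comparison in which Grik5 was called, Sst and Vip of the 7 inhibitory markers and Cldn5 of the 4 endothelial markers were lower at an unadjusted p under 0.05 and Aqp4 of the 5 astrocyte markers was higher, beside 9.9% and 9.76% of all genes. The median sum of the inhibitory markers was 10660 with both treatments, that of the astrocyte markers 13350 and that of the endothelial markers 2802, and none of these genes was called. With both treatments against control 4 of 5 microglial, 2 of 5 astrocyte, 1 of 7 inhibitory, 1 of 4 endothelial and 1 of 4 upper-layer markers were higher at that level, beside 8.08% of all genes, and 2 of 4 deep-layer markers lower, beside 8.73%. With duloxetine alone 4 of 5 microglial markers were higher, beside 2.2% of all genes, and no other marker was higher or lower at that level. The part of these markers in the values of the receptor genes was not tested.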

How the data were processed

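Poly(A) RNA of male mice was sequenced by the authors and, per the methods, mapped to GRCm38.p5, and per the labels with TopHat2 2.1.0 and Bowtie2 2.2.6 to mm9. Gene positions match GRCm38. The deposited signal values are gene counts that the authors divided by DESeq2 (1.18.1) size factors. Counter, strand setting and filter are not given in the sources used here. Values were whole multiples of 1 step per mouse (0.883 to 1.108) for at least 99.974% of the genes of each mouse, within a tolerance of 0.0051, which returned the reads.

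log2(value + 1) was fitted for all 4 groups with limma 3.58.1 in R 4.3.3 (trended prior, two-sided, Benjamini-Hochberg, threshold 0.05), so fold changes are on that scale. Levels per kb used exon lengths of GENCODE vM21. Single genes were also tested by exact permutation (scipy 1.17.1). The fit was checked on simulated counts of independent genes, with changes larger than any fold change reported here. That check cannot say how smaller changes fare. DESeq2 1.42.0 and edgeR 4.0.16 were run on the recovered reads as alternatives. Named besides the 6 genes are 8 partner genes, the 2 most abundant genes of each list and called genes, of which some are not reported here. The members and lists were chosen with earlier results of these data known. The methods state that mice were housed in groups and the labels tie no mouse to a cage, so mice of a group may have shared one. The tests of the fit reported take each mouse as independent, so their p-values make no allowance for a shared cage. The lowest value of any of the 6 genes was 126 normalized counts (Grik1).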

Additional observations from a re-analysis of the deposited data

Results flagged for a closer look

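Of 24 sets of 6 mice examined, 1 for each gene and group, 2 held a mouse whose gap to its nearest neighbour took an unusually large part of the group's range, where chance alone flags about 1 in 20. Grik4 was at 554.55 normalized counts in mouse 10_2 of the group with both treatments, and the gap was 0.693 of the range. Grid1 was at 970.9 in mouse 6_2 of the duloxetine group, and the gap was 0.734 of the range. Without mouse 10_2 the log2 fold change of Grik4 in both treatments against control was -0.04, and without mouse 6_2 that of Grid1 in duloxetine against control was -0.02, neither of them called.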

How the results depend on the processing

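The settings changed were the pseudocount (0.1), the filter (none, or a minimum mean of 50), the mice entering the fit (only the groups compared), the scaling (quantile normalization, upper-quartile rescaling), a random block for the first label number, a length trend removed, DESeq2, edgeR and leaving out each mouse. The number of the 6 genes called in both treatments against R. flavefaciens, 1 in the fit reported, was 0 with quantile normalization, upper-quartile rescaling and only the groups compared, and 2 with DESeq2 (Grik1 and Grik5, adjusted p 0.0361 and 0.0119). DESeq2 called 1 in R. flavefaciens against control (Grik3, 0.0438), 1 for the bacterium averaged over duloxetine (Grid1, 0.0385) and 1 for duloxetine averaged over the bacterium (Grik5, 0.046), the last also called with the length trend removed (0.0407). In each of these the count reported was 0. Leaving out 1 mouse gave 0 to 2 called in R. flavefaciens against control (Grik3 without 8_3, Grik2 and Grik3 without 9_2) and 0 to 1 in both treatments against R. flavefaciens, R. flavefaciens against duloxetine, and each treatment averaged over the other. For Grik5 in both treatments against R. flavefaciens the log2 fold change then lay between -0.24 and -0.17, negative in 24 of 24 fits, and it was called in 14. The call was lost without mice 3_3, 5_3, 7_2, 8_3, 8_4, 9_3, 11_3, 11_4, 12_3 and 12_4.

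Grik4 in both treatments against control, -0.0002 as reported, was 0.008 with quantile normalization, 0.034 with upper-quartile rescaling and 0.003 with DESeq2 and edgeR, and in both treatments against R. flavefaciens it was 0.007 with quantile normalization and 0.014 with upper-quartile rescaling. Without single mice Grik4 ranged from -0.038 to 0.018 and from -0.043 to 0.022 in these, from -0.024 to 0.031 in R. flavefaciens against control and from -0.013 to 0.058 in duloxetine against control, and Grid1 in both treatments against R. flavefaciens from -0.058 to 0.002. Of all genes, 334 were called in both treatments against R. flavefaciens, 0 with only the groups compared and 610 with DESeq2, and in R. flavefaciens against control 4, 0 and 497. Leaving out 1 mouse gave 47 to 577 and 0 to 616 called genes in these. DESeq2 called 217 genes where limma called 15 in both treatments against control, 172 against 18 in R. flavefaciens against duloxetine, 361 against 4 for the averaged bacterium and 317 against 154 for averaged duloxetine. The causes were not tested. No paired analysis was possible because the groups share no replicate numbers.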
